A study of Mus musculus with 8 samples.

Results

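Solute carrier genes were measured in EO771 cells, which derive from a mouse mammary carcinoma, under 12-HETE treatment and under ADAR1 p150 overexpression. Members were selected on their name and their level: a symbol made of Slc, a family number, a letter and a second number, and an average of 10 or more counts across the 8 libraries. Of 49997 genes in the count table, 364 had such a symbol and 73 of these reached the minimum. The minimum is also that of the test, which covered 6901 genes. Solute carriers are membrane proteins that move sugars, amino acids, lactate, vitamins, metals and ions by facilitated diffusion, by exchange, or by using ion gradients. Families are numbered by sequence similarity, and members of one family often share a class of substrate. Proliferating tumour cells depend on them for glucose, amino acids and metals and for the export of lactate.

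The libraries came from 2 experiments, each with its own controls and 2 replicates per group. In the first, cells received vehicle (2% DMSO in saline, replicates 4 and 5) or 12-HETE, a hydroxy fatty acid that 12-lipoxygenase makes from arachidonic acid, at 100 nM over 48 h (replicates 4 and 5). In the second, cells were transduced with an empty vector (replicates 1 and 2) or a vector for overexpression of ADAR1 p150, the longer form of an adenosine deaminase that edits double-stranded RNA (replicates 1 and 2). All groups share the EO771 background, and the promoter of the vector is not given in the sources used here. The study's text calls the replicates of the RNA editing data for these treatments independent experiments, and the labels do not say whether the libraries came from separate cultures. If they did not, p-values measure only the spread between these libraries, which may be technical.

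Total counts were between 1101767 and 1537037 per library, and both treated groups were deeper than their controls. Counts of Adar, the targeted gene, were 2 and 8 under vector against 181 and 140 under ADAR1 p150 (log2 fold change 4.68 ± 0.32, SE, adjusted p 6.40e-14). In the other experiment they were 5 and 5 with vehicle and 7 and 6 with 12-HETE. AY036118, named here for its high level, accounted for between 44.4% and 50.3% of each library. Members together held between 3314 and 4502 counts per library, or between 0.253% and 0.320% of all counts. A floor of 3 counts amounted to between 1.95 and 2.72 CPM, and intervals and floors given here cover counting error only. Of 8 epithelial markers, 5 reached the minimum, all of them keratins (Krt8, Krt18, Krt19, Krt7 and Krt14). Epcam had between 1 and 4 counts per library, Krt5 at most 1 and Cdh1 0. All 3 mesenchymal markers reached the minimum, and Sparc among them was called higher with 12-HETE (log2 fold change 1.03 ± 0.37, SE, adjusted p 0.0315). The others, Vim (0.50 ± 0.24, adjusted p 0.128) and Fn1 (-0.05 ± 0.12, adjusted p 0.815), did not pass there. Krt18 passed lower by adjusted p in both experiments (-0.61, adjusted p 0.0121, and -0.88, adjusted p 0.00198). With ADAR1 p150, Krt8, Krt19, Krt14 and Fn1 passed higher, all under a 2-fold change. Summed counts were between 8 and 22 for 5 leukocyte markers, between 1 and 11 for 3 endothelial markers and between 8 and 59 for 4 fibroblast markers. In RNA of a whole culture, fewer cells of a type and less RNA per cell cannot be told apart.

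Most of the family was measured at low depth. Of the 364 genes, 94 had no count in any library, 72 had a mean above 0 and under 1, and 125 had a mean from 1 to under 10. Among the 73 members the median mean count was 23, 5 members had a mean of at least 100, 11 a mean from 50 to under 100 and 31 a mean under 20. In 51 members there were at least 10 counts in every library. Just inside the minimum were Slc22a5 with a mean count of 10.625 and Slc4a5 and Slc4a7 with 10.125 each. Just outside were Slc37a2 with 9.875, Slc38a4 with 9.375 and Slc4a11 with 9.25. These counts chose the members and are given as a description.

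The genes with the highest counts were not those usually named for growing cells. Slc26a10, an orphan of the sulfate and anion transporter family, held between 26.8% and 28.8% of the members' counts in each library. Among those that followed were Slc24a5, a cation exchanger known from melanosomes, Slc5a2, the sodium-glucose transporter of the kidney, and Slc5a10, another kidney sodium-sugar transporter. Per kilobase of exon, the mean level over the libraries was 209 CPM for Slc26a10, 75.2 for Slc24a5, 57.7 for Slc5a10 and 46.9 for Slc5a2. By the same measure it was 8.53 for Slc38a2, a sodium-coupled transporter of neutral amino acids, and 2.76 for Slc2a1, the basal glucose transporter, which ranked 21 and 52 of 73. A list of 23 transporters well known in cultured cells held 9 members, and 14 were under the minimum. Among those 14 were Slc25a5, an ADP/ATP carrier with a mean count of 5.625, Slc16a1, a lactate transporter with 5.25, and Slc25a4, another ADP/ATP carrier with 0.25.

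**Figure D1:**
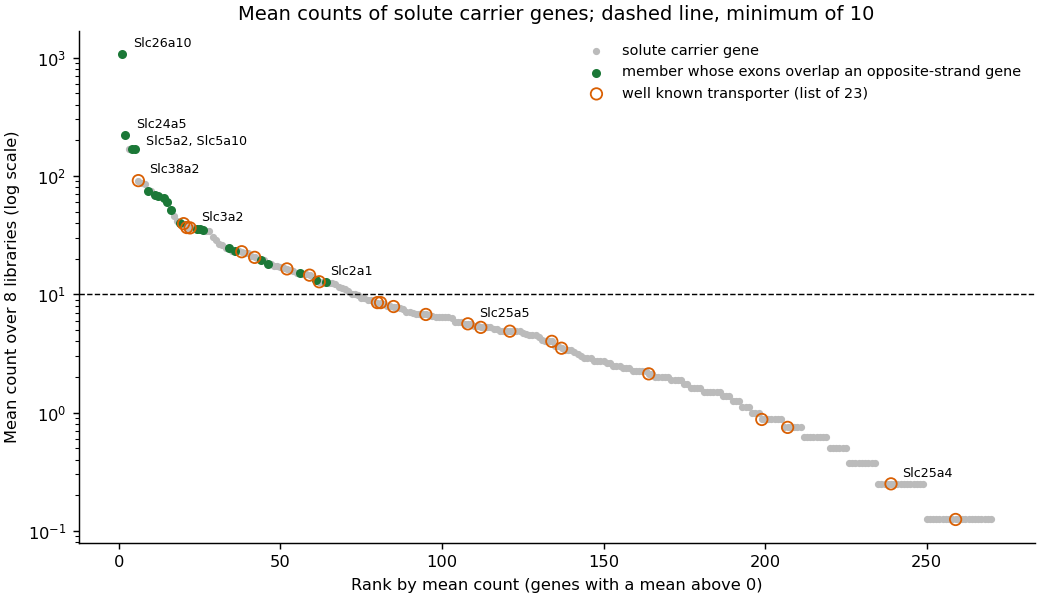
Mean count over 8 libraries (log scale) against rank for the solute carrier genes with a mean above 0; green points are members whose exons overlap a gene on the opposite strand and orange circles the list of 23 well known transporters. Slc26a10 stands at a mean of 1062 counts, above all others, and 14 of the 23 circles lie under the dashed minimum of 10.

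Some members share genomic sequence with a gene on the other strand. The strand setting of the counting step is not given in the sources used here, so a count may include reads of such a partner. Exons of 21 of the 73 members (28.8%) overlapped an opposite-strand gene, as did those of 10 of the 16 members with a mean of at least 50 (62.5%). The share was 9.38% among the other solute carrier genes with an annotation, 40.6% among all genes tested and 13.6% over the whole table. In 13 of the 21, the member had more counts than every such partner. Slc26a10 shares 715 exon bases with B4galnt1, which had between 19 and 41 counts per library, and Slc24a5 shares 921 with Myef2, which had between 4 and 26. How far partners contribute to the members' counts was not tested.

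With 12-HETE, 7 of the 73 members were called, against 14.4% of all genes tested, and 6 of the 7 were lower. A call required an adjusted p below 0.05 together with a 2-fold difference in the quasi-likelihood test of edgeR, with Benjamini-Hochberg adjustment across all 6901 genes. The member higher was Slc39a10 (background 6.12% of genes called higher), and those lower were Slc38a2, Slc26a1, Slc35e2, Slc3a2, Slc39a4 and Slc22a5 (background 8.25% called lower). By adjusted p alone 16 members passed, against 29.3% of all genes: 6 were higher (background 15.1%) and 10 lower (background 14.2%). The median log2 fold change was -0.10 over the members and 0.00 over all genes tested, with 30 members above 0 and 43 below. Without vehicle replicate 4 the members' median was 0.00.

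With ADAR1 p150, 10 of the 73 members were called, against 12.8% of all genes. Of these 5 were higher (background 8.11%), namely Slc10a1, Slc3a1, Slc2a1, Slc39a10 and Slc22a5, and 5 lower (background 4.69%), namely Slc38a2, Slc7a1, Slc7a10, Slc7a5 and Slc4a5. By adjusted p alone 18 members passed, against 25.6% of all genes: 11 were higher (background 14.5%) and 7 lower (background 11.1%). The median log2 fold change was 0.17 over the members and 0.07 over all genes, with 43 members above 0 and 30 below. The share of members called was 9.59% with 12-HETE, under the background, and 13.7% with ADAR1 p150, close to it. Without vector replicate 1, 5 members were called with ADAR1 p150, and without vector replicate 2, 6 were called. DESeq2 called 4 members in this contrast. Of the 14 members called in either experiment, 4 had a mean count under the minimum of 10 outside the group where they were highest: Slc39a10, Slc22a5, Slc2a1 and Slc4a5. These were tested because of that group, so their calls are not independent of the minimum. Over controls alone, 3 of the 14 had a mean count under 10: Slc39a10, Slc2a1 and Slc3a1.

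The control groups were also set against each other. Between vector and vehicle, 0 of the 73 members were called by edgeR, against 0.0435% of all genes, and 0 passed by adjusted p alone, against 0.116%. At an unadjusted p under 0.05 there were 5 of the 73 members by edgeR, against 795 of all 6901 genes. DESeq2 gave 1 member at that level and also called 0. The 5, of which Slc7a1 and Slc22a5 fall under the rule for named genes and the others were chosen after seeing their values, were Slc7a1, Slc9a8, Slc7a15, Slc26a2 and Slc22a5. Slc22a5 differed by -1.20 ± 0.48 (SE) on the log2 scale between vector and vehicle, with an adjusted p of 0.323.

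**Figure D2:**
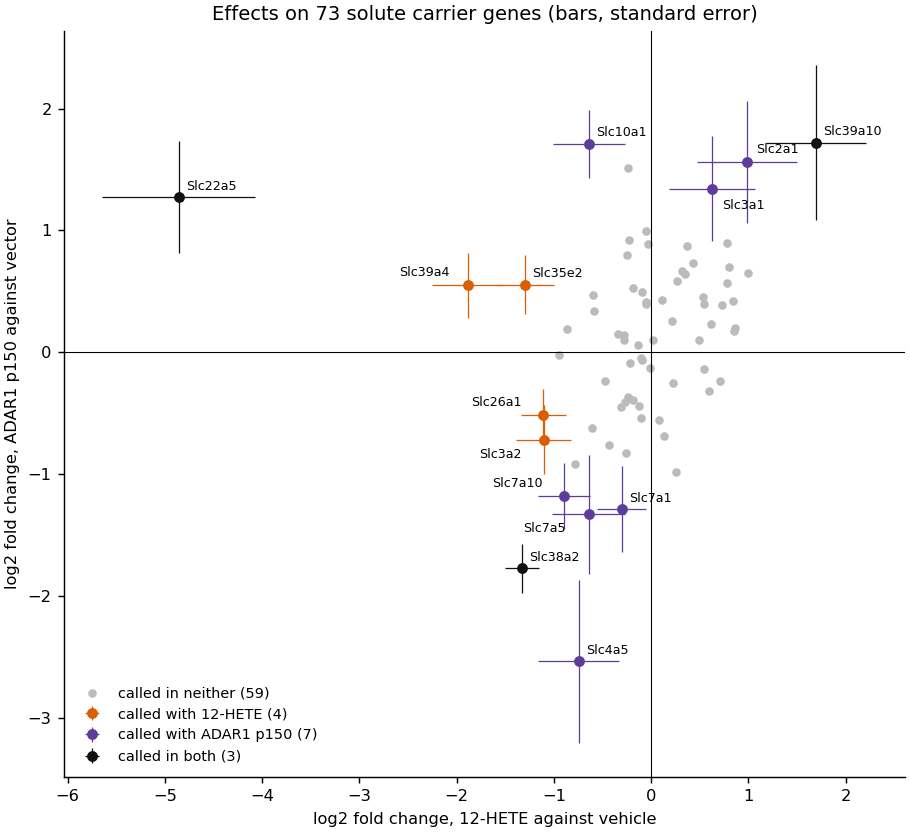
Log2 fold change with 12-HETE against vehicle (x axis) and with ADAR1 p150 against vector (y axis) for the 73 members; bars are standard errors on called members. Most grey points lie within 1 of 0 on both axes, Slc39a10 lies at 1.69 and 1.72 and Slc38a2 at -1.33 and -1.77, and the value of -4.86 for Slc22a5 rests on 1 count in the 12-HETE libraries.

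Transporters of amino acids, peptides and amines formed the largest class, with 16 members of 73 matching genes. With 12-HETE, 0 were called higher and 2 lower, and 3 passed by adjusted p, all lower. With ADAR1 p150, 1 was called higher and 4 lower. Over all genes tested, 6.12% were called higher and 8.25% lower with 12-HETE, and 8.11% and 4.69% with ADAR1 p150. By adjusted p alone, 15.1% passed higher and 14.2% lower with 12-HETE, and 14.5% and 11.1% with ADAR1 p150. These shares are also the background for the counts of every class below. The median log2 fold change of the class was -0.26 with 12-HETE and -0.41 with ADAR1 p150, beside -0.10 and 0.17 over all members. The summed normalized level of the class was 423 and 436 CPM with vehicle against 302 and 306 with 12-HETE. It was 365 and 375 CPM with vector against 257 and 255 with ADAR1 p150. The treated libraries were below both of their controls in each experiment, with ratios of group means of 0.708 and 0.691. Slc38a2 alone accounted for -74.0 of the -125 CPM between group means with 12-HETE and for -70.8 of the -114 CPM with ADAR1 p150. Without it the ratios were 0.833 and 0.839, and treated libraries were still below both controls in each experiment.

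Slc38a2 (chr15:96687392-96699730, minus strand, GRCm38) takes up glutamine, alanine and other neutral amino acids with sodium and was the most abundant member of the class. Its counts were 141 and 152 with vehicle against 59 and 74 with 12-HETE. They were 101 and 123 with vector against 45 and 35 with ADAR1 p150. Every treated library was below every control library. The normalized level fell from 123 ± 3.81 to 49.4 ± 10.3 CPM (SD, n = 2) with 12-HETE, a log2 fold change of -1.33 ± 0.17 (SE; adjusted p 2.22e-07). With ADAR1 p150 it fell from 99.8 ± 10.8 to 29.1 ± 3.68 CPM (SD, n = 2), a log2 fold change of -1.77 ± 0.20 (SE; adjusted p 1.14e-08). Slc38a2 was the member called lower in both experiments, and both calls held with DESeq2 and without each library in turn.

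Slc3a2 encodes the heavy chain that carries several light chains of the amino acid exchangers to the cell surface, and Slc7a5 encodes one of these light chains, which imports leucine and other large neutral amino acids. Slc3a2 counts were 48 and 50 with vehicle against 34 and 18 with 12-HETE, and 38 and 43 with vector against 23 and 37 with ADAR1 p150. The groups did not overlap in either experiment. Slc3a2 fell by 1.10 on the log2 scale with 12-HETE (SE 0.28, adjusted p 0.00267) and differed by -0.72 ± 0.28 with ADAR1 p150 (adjusted p 0.0587). Without 12-HETE replicate 5 the first value was -0.77, with an adjusted p of 0.0929. Slc7a5 counts were 12 and 15 with vector against 9 and 4 with ADAR1 p150, and its level fell by 1.33 on the log2 scale (SE 0.49, adjusted p 0.0404). With 25 and 19 counts under vehicle and 14 and 18 under 12-HETE, Slc7a5 differed by -0.64 ± 0.37 (adjusted p 0.200). The Slc7a5 call was lost without ADAR1 p150 replicate 2 (-0.92, adjusted p 0.250), without vector replicate 1 (adjusted p 0.0759), without vector replicate 2 (adjusted p 0.185) and with DESeq2 (adjusted p 0.188).

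Slc7a1, the importer of arginine and lysine, had 29 and 29 counts with vector against 22 and 7 with ADAR1 p150, and fell by 1.29 on the log2 scale (SE 0.35, adjusted p 0.00620). Without ADAR1 p150 replicate 2, the library with 7 counts, the value was -0.74 with an adjusted p of 0.151. Its counts were 47 and 60 with vehicle against 57 and 42 with 12-HETE, where the groups overlapped (-0.30 ± 0.25, adjusted p 0.400). Slc7a10, an exchanger of small neutral amino acids known from brain, passed in both experiments. Its counts were 43 and 47 with vehicle against 25 and 30 with 12-HETE, and 42 and 47 with vector against 21 and 27 with ADAR1 p150, with no overlap between treated and control libraries. The log2 fold change was -0.90 ± 0.26 with 12-HETE (adjusted p 0.00909) and -1.18 ± 0.27 with ADAR1 p150 (adjusted p 0.00115). Without ADAR1 p150 replicate 1 the latter was -0.96, under the 2-fold change. The first value lost its adjusted p without 12-HETE replicate 4 (0.122) and with DESeq2 (0.110). Lrp3, which shares 377 exon bases with Slc7a10 on the opposite strand, had between 1 and 11 counts per library.

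Slc3a1, the heavy chain of the cystine transporter of kidney and gut, was the member of the class called higher, with ADAR1 p150. Its mean count was 7.75 over controls and 18.5 over treated libraries. It reached the minimum through treated libraries, so its values are a description. Its counts were 7 and 7 with vector against 27 and 17 with ADAR1 p150, which gave a log2 difference of 1.34 ± 0.43 (adjusted p 0.0188), and 9 and 8 with vehicle against 15 and 15 with 12-HETE (0.62 ± 0.44, adjusted p 0.311). The call was lost with DESeq2 (adjusted p 0.234), without vector replicate 1 (0.0844), without vector replicate 2 (0.104) and without ADAR1 p150 replicate 1 (0.171). Prepl, on the opposite strand with 601 shared exon bases, had between 233 and 294 counts and a log2 fold change of -0.42 with ADAR1 p150 (adjusted p 0.00834). Slc1a5, the exchanger of glutamine and other neutral amino acids, had between 11 and 29 counts per library and did not pass in either experiment (0.13 ± 0.33 and -0.69 ± 0.38). Slc18a2, which loads monoamines into vesicles, had between 25 and 53 counts and did not pass either (0.26 ± 0.24 and 0.59 ± 0.25).

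The promoters of the amino acid members called lower in either experiment are shown as a set called in one direction, a choice that used their values. Promoter sequences (250 bases before to 50 after the start, RefSeq, GRCm38.p6) were held for 58 of the 73 members and for Slc38a2, Slc3a2, Slc7a1 and Slc7a10 of the 5 called lower in this class. They lie at chr15:96699679-96699978, chr19:8713848-8714147 and chr5:148399855-148400154 on the minus strand and at chr7:35186135-35186434 on the plus strand. Where a gene had several starts, the first listed was used. The Slc3a2 window lies inside the gene (chr19:8706882-8723369), at an internal start. Capitals mark the GC box GGGCGG on either strand.
Slc38a2: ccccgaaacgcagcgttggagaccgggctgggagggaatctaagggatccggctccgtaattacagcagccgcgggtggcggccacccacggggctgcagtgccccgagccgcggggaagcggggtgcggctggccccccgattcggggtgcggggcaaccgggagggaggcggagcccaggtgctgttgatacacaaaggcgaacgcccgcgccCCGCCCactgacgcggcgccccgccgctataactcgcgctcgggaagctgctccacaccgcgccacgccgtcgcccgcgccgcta
Slc3a2: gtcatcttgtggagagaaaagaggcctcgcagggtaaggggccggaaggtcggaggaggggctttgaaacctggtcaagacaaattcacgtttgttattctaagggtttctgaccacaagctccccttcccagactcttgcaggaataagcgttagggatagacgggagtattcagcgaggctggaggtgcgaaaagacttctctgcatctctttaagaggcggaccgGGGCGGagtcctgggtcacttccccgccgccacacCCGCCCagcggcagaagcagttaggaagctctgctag
Slc7a1: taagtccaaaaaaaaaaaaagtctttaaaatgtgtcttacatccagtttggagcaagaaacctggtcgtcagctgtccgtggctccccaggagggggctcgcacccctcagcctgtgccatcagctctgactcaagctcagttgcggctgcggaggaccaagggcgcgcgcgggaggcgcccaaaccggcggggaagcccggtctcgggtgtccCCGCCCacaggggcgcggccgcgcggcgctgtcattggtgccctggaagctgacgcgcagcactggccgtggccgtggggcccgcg
Slc7a10: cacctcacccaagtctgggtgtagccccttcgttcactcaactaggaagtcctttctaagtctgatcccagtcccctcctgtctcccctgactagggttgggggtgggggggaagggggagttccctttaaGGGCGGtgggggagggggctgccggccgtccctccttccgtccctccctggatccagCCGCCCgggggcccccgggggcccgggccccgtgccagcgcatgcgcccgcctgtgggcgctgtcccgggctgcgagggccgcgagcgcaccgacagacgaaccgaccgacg

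GC content was 73% for Slc38a2, 56% for Slc3a2, 65% for Slc7a1 and 70.7% for Slc7a10. The GC box occurred once in Slc38a2 and Slc7a1 and at 2 places in Slc3a2 and Slc7a10. It was present in 70.7% of the 58 members' promoters and in 35.9% of 27025 promoters of the same length. The 27025 were not limited to genes that reached the minimum count, as the members were. The share among promoters of all genes tested was not computed, so these shares do not set members apart from other expressed genes. CCAAT was found in 29.3% of members' promoters and 37.9% of all, TATAAA in 17.2% and 14.2%, and TGATGNAAN, the core of the amino acid response element, in 5.17% and 4.04%, each on either strand. The search for TATAAA and for TGATGNAAN gave no match in the 4 sequences printed. Sequence outside these windows, such as introns, was not searched. None of these motifs contains another on either strand, and a match is a description of the sequence.

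Sugar transporters had 4 members of 23 matching genes. With 12-HETE, 1 passed by adjusted p, higher, and with ADAR1 p150, 1 was called higher and 1 passed lower. Slc2a1 (chr4:119108711-119137983, plus strand), the glucose transporter of most dividing cells, had 6 and 6 counts with vector against 30 and 14 with ADAR1 p150. Outside the ADAR1 p150 libraries its mean count was 9.67, so it was tested because of that group, and its values are a description. The log2 fold change was 1.56 ± 0.50 (SE; adjusted p 0.0191). Vehicle and 12-HETE counts were 6 and 8 against 24 and 8, where the groups overlapped in counts (0.99 ± 0.51, adjusted p 0.151). The call with ADAR1 p150 was lost without ADAR1 p150 replicate 1 (0.97, adjusted p 0.299), without vector replicate 1 (adjusted p 0.0695), without vector replicate 2 (adjusted p 0.0862) and with DESeq2 (adjusted p 0.203). Gm12867, an opposite-strand gene inside Slc2a1 that shares no exon bases with it, had 971 and 937 counts with vector against 2266 and 2348 with ADAR1 p150. Its log2 fold change was 0.98 (adjusted p 7.04e-10), and its part in the Slc2a1 counts was not tested.

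The kidney transporters Slc5a2 and Slc5a10 made up most of the sugar class. Slc5a10 counts were 176 and 184 under vehicle, 175 and 169 under 12-HETE, 188 and 195 under vector and 128 and 136 under ADAR1 p150. Both ADAR1 p150 libraries lay below all others. Slc5a10 fell by 0.83 on the log2 scale with ADAR1 p150 (SE 0.14, adjusted p 1.34e-05), less than the 2-fold change, and this held with DESeq2 and without each library in turn. Slc5a2 had between 144 and 190 counts per library and differed by -0.21 ± 0.14 with 12-HETE and -0.09 ± 0.14 with ADAR1 p150, neither of which passed. Slc2a6, a glucose transporter of intracellular membranes chosen after seeing its values, had 10 and 15 counts with vehicle against 25 and 32 with 12-HETE (log2 fold change 1.00 ± 0.36, adjusted p 0.0332), just under the 2-fold change. It did not pass without vehicle replicate 4 (0.76), without vehicle replicate 5 (1.22) or without 12-HETE replicate 5 (0.75). Nor did it pass with no minimum count (adjusted p 0.115) or with DESeq2 (0.247).

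Carboxylate transporters had 5 members of 21 matching genes, all of the family that moves lactate, ketone bodies and related acids. All 5 log2 fold changes were above 0 in both experiments, between 0.21 and 0.85 for 12-HETE and between 0.26 and 0.87 for ADAR1 p150, but 0 were called. By adjusted p, 1 passed with 12-HETE and 2 with ADAR1 p150. Summed levels were 150 and 147 CPM with vehicle against 195 and 209 with 12-HETE, and 168 and 170 with vector against 254 and 255 with ADAR1 p150. Treated libraries were above both controls in each experiment.

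Slc16a4, a member of this family whose substrate is not settled, had 62 and 60 counts with vector against 138 and 136 with ADAR1 p150. It rose from 54.5 ± 2.95 to 99.9 ± 4.05 CPM (SD, n = 2), a log2 fold change of 0.87 ± 0.17 (adjusted p 0.000194), and this held with DESeq2 and without each library in turn. With 57 and 61 counts under vehicle and 94 and 80 under 12-HETE, its difference there was 0.37 ± 0.18 (adjusted p 0.136). Slc16a3, the lactate exporter of glycolytic cells, had 30 and 32 counts with vector against 61 and 58 with ADAR1 p150 (0.65 ± 0.24, adjusted p 0.0425). The libraries of both groups did not overlap, yet the adjusted p lay above 0.05 in 13 of 16 alternatives, including without each ADAR1 p150 or vector library and with DESeq2 (0.362). Slc16a8, a lactate transporter known from retinal pigment epithelium and chosen after seeing its values, had 19 and 15 counts with vehicle against 38 and 32 with 12-HETE (0.85 ± 0.32, adjusted p 0.0448), which did not pass without any 1 of these 4 libraries (adjusted p from 0.0741 to 0.327). Slc16a6 had 47 and 42 counts with vehicle against 62 and 86 with 12-HETE, and 48 and 60 with vector against 91 and 83 with ADAR1 p150, and did not pass (0.55 ± 0.22 and 0.39 ± 0.21).

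Cation and cation-chloride transporters had 5 members of 30 matching genes. With 12-HETE 3 passed by adjusted p, all higher and under the 2-fold change (background 15.1% of genes passing higher). With ADAR1 p150 0 passed. Slc24a5 had 193 and 180 counts with vehicle against 317 and 284 with 12-HETE, with no overlap. The log2 fold change was 0.50 ± 0.13 (adjusted p 0.00365), and it did not pass with DESeq2 (adjusted p 0.0746) or without vehicle replicate 5 (0.36, adjusted p 0.152). Vector and ADAR1 p150 counts were 180 and 168 against 204 and 251 (0.10 ± 0.14, adjusted p 0.668). Slc12a9, an orphan of the cation-chloride family chosen after seeing its values, had 42 and 37 counts with vehicle against 69 and 93 with 12-HETE (0.85 ± 0.23, adjusted p 0.00501). It did not pass without vehicle replicate 5 (0.67, adjusted p 0.0965), without 12-HETE replicate 5 (0.56, adjusted p 0.170) or with DESeq2 (0.118). The summed level of the class was 336 and 294 CPM with vehicle against 491 and 501 with 12-HETE, the largest ratio of any class in that experiment (1.57). It was 353 and 319 with vector against 335 and 398 with ADAR1 p150, where the groups overlapped.

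Metal and haem transporters had 10 members of 34 matching genes, of which 6 belong to the zinc importer family of Slc39a4 and Slc39a10. With 12-HETE 1 was called higher and 1 lower, and with ADAR1 p150 1 was called higher and 1 more passed higher. Slc39a4 (chr15:76612383-76617384, minus strand), the zinc importer of intestinal epithelium, had 36 and 36 counts with vehicle against 5 and 17 with 12-HETE. It fell from 30.3 ± 0.674 to 8.29 ± 6.68 CPM (SD, n = 2), a log2 fold change of -1.88 ± 0.37 (adjusted p 0.000125). The fall was called with DESeq2 and without each library in turn, where the value lay between -3.05 and -1.21. Counts were 41 and 29 with vector against 66 and 60 with ADAR1 p150 (0.55 ± 0.27, adjusted p 0.130).

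Slc39a10, a zinc importer of the plasma membrane, was called higher in both experiments, but it reached the minimum only through treated libraries, with a mean count of 4.75 over controls and 18.5 over treated libraries. A gene that enters the test this way had to differ, and these values are a description. Counts were 3 and 9 with vehicle against 29 and 16 with 12-HETE, and 4 and 3 with vector against 23 and 6 with ADAR1 p150. Treated libraries exceeded their own controls, and 5 of the 8 counts were under 10. The log2 fold change was 1.69 ± 0.52 (adjusted p 0.0119) and 1.72 ± 0.64 (adjusted p 0.0435). With 12-HETE the call was lost without vehicle replicate 4 (1.14, adjusted p 0.165), without 12-HETE replicate 4 (1.26, adjusted p 0.195) and with DESeq2 (adjusted p 0.161). With ADAR1 p150 it was lost without ADAR1 p150 replicate 1 (0.52, adjusted p 0.716), without vector replicate 1 (adjusted p 0.0862), without vector replicate 2 (adjusted p 0.179) and without 12-HETE replicate 4 (adjusted p 0.0526), and DESeq2 gave no adjusted p. Slc48a1, a haem transporter of lysosomes, had 61 and 50 counts with vector against 91 and 105 with ADAR1 p150 (0.53 ± 0.20, adjusted p 0.0457), which did not pass in 11 of 16 alternatives, among them without vector replicate 2 (0.36) and without ADAR1 p150 replicate 2 (0.37). The zinc importers Slc39a5, with between 46 and 91 counts, and Slc39a1, with between 9 and 25, did not pass in either experiment (log2 fold changes from -0.28 to 0.41).

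Carriers of the endoplasmic reticulum and Golgi, which bring nucleotide sugars and sugar phosphates into these compartments, had 10 members of 32 matching genes. With 12-HETE 9 of 10 log2 fold changes were below 0. In that contrast 1 was called lower (background 8.25%) and 3 passed, all lower (background 14.2%). With ADAR1 p150 7 of 10 were above 0, 0 were called and 1 passed, higher. Summed levels were 211 and 209 CPM with vehicle against 156 and 145 with 12-HETE, and 201 and 219 with vector against 251 and 274 with ADAR1 p150. The treated libraries were thus below their controls in the first experiment and above them in the second.

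Slc35e2, an orphan of the nucleotide sugar transporter family, had 46 and 32 counts with vehicle against 17 and 19 with 12-HETE, and fell by 1.30 on the log2 scale (SE 0.30, adjusted p 0.00103). Without vehicle replicate 4 the value was -0.99, just under the 2-fold change. With 31 and 43 counts under vector and 63 and 70 under ADAR1 p150 the difference was 0.55 ± 0.24 (adjusted p 0.0877). Gm16023, with 540 shared exon bases on the opposite strand, had between 77 and 136 counts and a log2 fold change of 0.26 with 12-HETE (adjusted p 0.239). Slc35a4, of the same family, had 63 and 60 counts with vehicle against 36 and 41 with 12-HETE (-0.86 ± 0.23, adjusted p 0.00349), and 43 and 47 with vector against 73 and 53 with ADAR1 p150 (0.19 ± 0.22, adjusted p 0.585). Its fall did not pass with DESeq2 (adjusted p 0.0548) or without 12-HETE replicate 4 (-0.72, adjusted p 0.0664). Chosen after their values were seen, Slc37a1 fell by 0.94 with 12-HETE (adjusted p 0.0176) and Slc37a4, the glucose-6-phosphate carrier, rose by 0.90 with ADAR1 p150 (adjusted p 0.0294), both on the log2 scale. Slc37a1 did not pass without vehicle replicate 5 (-0.59, adjusted p 0.323), without 12-HETE replicate 5 (-0.69, adjusted p 0.188) or with DESeq2 (0.132). Slc37a4 did not pass without any 1 of the vector and ADAR1 p150 libraries (adjusted p from 0.0504 to 0.228) or with DESeq2 (0.280).

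Transporters of organic ions and lipids had 5 members of 51 matching genes. With 12-HETE 1 was called lower, and with ADAR1 p150 2 were called higher. Slc10a1 (chr12:80953183-80968705, minus strand), the sodium-dependent bile salt importer of hepatocytes, had 22 and 14 counts with vector against 67 and 78 with ADAR1 p150. It rose from 16.2 ± 5.55 to 53.0 ± 8.36 CPM (SD, n = 2), a log2 fold change of 1.71 ± 0.28 (adjusted p 1.32e-05), which was called with DESeq2 and without each library in turn. With 19 and 18 counts under vehicle and 14 and 13 under 12-HETE, its difference there was -0.64 ± 0.37 (adjusted p 0.204). No opposite-strand gene of the annotation overlapped Slc10a1.

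Slc22a5 (chr11:53864542-53891660, minus strand), the carnitine importer that serves fatty acid oxidation, moved in opposite directions. Counts were 15 and 17 with vehicle against 1 and 0 with 12-HETE. Scaled to depth, the 12-HETE level was 2.74% of the vehicle level, with an exact 95% counting interval from 0.0673% to 16.4% (adjusted p 8.18e-06). With vector it had 5 and 8 counts and with ADAR1 p150 24 and 15, a log2 fold change of 1.28 ± 0.46 (adjusted p 0.0387). Outside the ADAR1 p150 libraries its mean count was 7.67, so it was tested because of that group, and its values are a description. The call with 12-HETE held with DESeq2 and without each library in turn. The call with ADAR1 p150 was lost without vector replicate 1 (1.01, adjusted p 0.228), vector replicate 2 (1.62, adjusted p 0.0699), ADAR1 p150 replicate 1 (0.95, adjusted p 0.258) and vehicle replicate 5 (1.22, adjusted p 0.0506), and DESeq2 gave no adjusted p. Vector libraries held fewer Slc22a5 counts than vehicle libraries, a difference that did not pass as given for the controls. Slc22a4, a related transporter of ergothioneine, had 11 and 14 counts under vehicle, 28 and 22 under 12-HETE, 25 and 12 under vector and 41 and 33 under ADAR1 p150, and did not pass (0.80 ± 0.38 and 0.70 ± 0.33).

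Transporters of inorganic anions had 7 members of 27 matching genes, and their summed level was almost all Slc26a10. Slc26a10 had 998 and 928 counts under vehicle, 1146 and 1087 under 12-HETE, 892 and 982 under vector and 1296 and 1164 under ADAR1 p150. After scaling to depth the differences were 0.02 ± 0.10 and 0.10 ± 0.10 on the log2 scale, neither of which passed. Slc26a1, a sulfate and oxalate exchanger, had 82 and 60 counts with vehicle against 45 and 30 with 12-HETE, and fell by 1.11 on the log2 scale (SE 0.23, adjusted p 0.000316). The value was -0.85 without vehicle replicate 4 and -0.90 without 12-HETE replicate 5, both under the 2-fold change. With 69 and 71 counts under vector and 68 and 52 under ADAR1 p150 the difference was -0.52 ± 0.21 (adjusted p 0.0734). Idua, with 141 shared exon bases on the opposite strand, had between 34 and 78 counts and log2 fold changes of 0.35 (adjusted p 0.264) and 0.69 (adjusted p 0.0166).

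Slc4a5, a sodium-bicarbonate cotransporter, had 13 and 7 counts with vector against 3 and 1 with ADAR1 p150. It fell by 2.54 on the log2 scale (SE 0.67, adjusted p 0.00426), a fitted value that rests on few counts. Outside the vehicle libraries its mean count was 7.83, so it was tested because of that group. The call was lost without vector replicate 1 (-2.00, adjusted p 0.102) and without ADAR1 p150 replicate 2 (-2.03, adjusted p 0.0566), and DESeq2 gave no adjusted p. Vehicle libraries had 16 and 18 counts and 12-HETE libraries 11 and 12 (-0.75 ± 0.42, adjusted p 0.184).

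Transporters of nucleosides, vitamins and choline had 6 members of 26 matching genes, of which 0 passed with 12-HETE and 1 passed with ADAR1 p150. Slc23a1, a sodium-dependent importer of vitamin C, had 74 and 64 counts with vector against 164 and 130 with ADAR1 p150, and rose by 0.79 on the log2 scale (SE 0.18, adjusted p 0.000886). DESeq2 gave an adjusted p of 0.0509. With 74 and 59 counts under vehicle and 73 and 55 under 12-HETE, the groups overlapped (-0.25 ± 0.20, adjusted p 0.390). Slc5a6, which imports biotin and pantothenate, had between 65 and 85 counts per library and differed by -0.10 ± 0.19 and -0.06 ± 0.19, neither of which passed.

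Mitochondrial carriers had 5 members of 47 matching genes. Slc25a11, which exchanges oxoglutarate for malate across the inner membrane, passed lower in both experiments. Its counts were 44 and 42 with vehicle against 27 and 30 with 12-HETE, and 42 and 43 with vector against 25 and 30 with ADAR1 p150, with treated libraries below all controls. The log2 fold change was -0.78 ± 0.26 (adjusted p 0.0218) and -0.92 ± 0.26 (adjusted p 0.00865). The first did not pass without vehicle replicate 4 (-0.72, adjusted p 0.107), without 12-HETE replicate 4 (-0.66, adjusted p 0.163) or with DESeq2 (0.181), and the second without ADAR1 p150 replicate 1 (-0.74, adjusted p 0.0905) or with DESeq2 (0.0914). Rnf167, with 189 shared exon bases on the opposite strand of Slc25a11, had between 100 and 165 counts per library. Its log2 fold changes were 0.04 (adjusted p 0.886) and 0.31 (adjusted p 0.149), and its part in the Slc25a11 counts was not tested. Slc25a18, a glutamate carrier, had 51 and 46 counts with vector against 94 and 126 with ADAR1 p150 (0.89 ± 0.21, adjusted p 0.00129), and did not pass without ADAR1 p150 replicate 2 (0.61, adjusted p 0.0611) or with DESeq2 (0.0543). Slc25a3, the phosphate carrier that feeds ATP synthesis, had between 12 and 42 counts and did not pass (0.23 ± 0.35 and -0.25 ± 0.40).

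**Figure D3:**
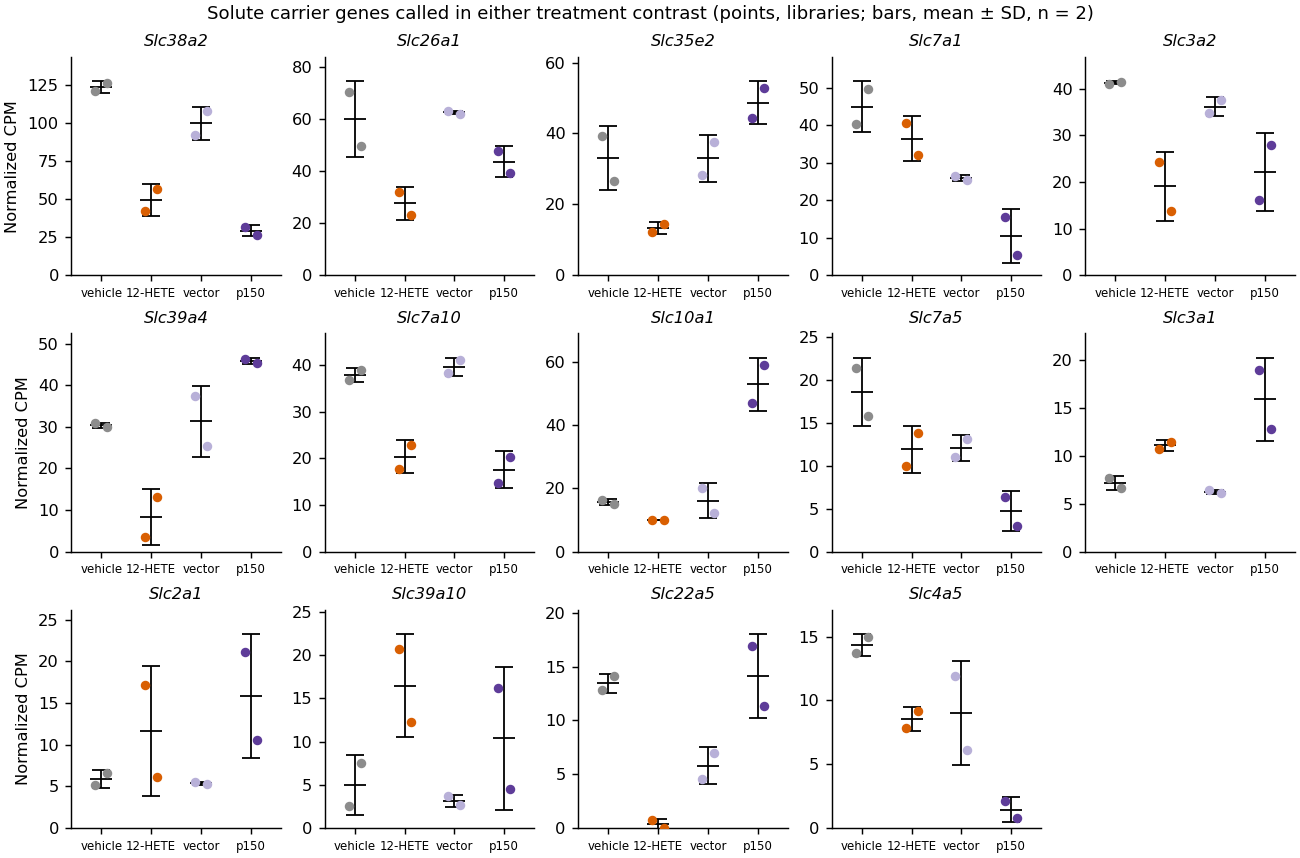
Normalized level in CPM of the 14 members called in either experiment, by group; points are libraries and bars the mean ± SD (n = 2), and p150 stands for ADAR1 p150 overexpression. In Slc38a2 the treated groups average 49.4 and 29.1 CPM and the controls 123 and 99.8, in Slc22a5 the 12-HETE libraries lie at or near 0, and in Slc39a10 the ADAR1 p150 libraries have an SD of 8.23 around a mean of 10.4 CPM.

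**Figure D4:**
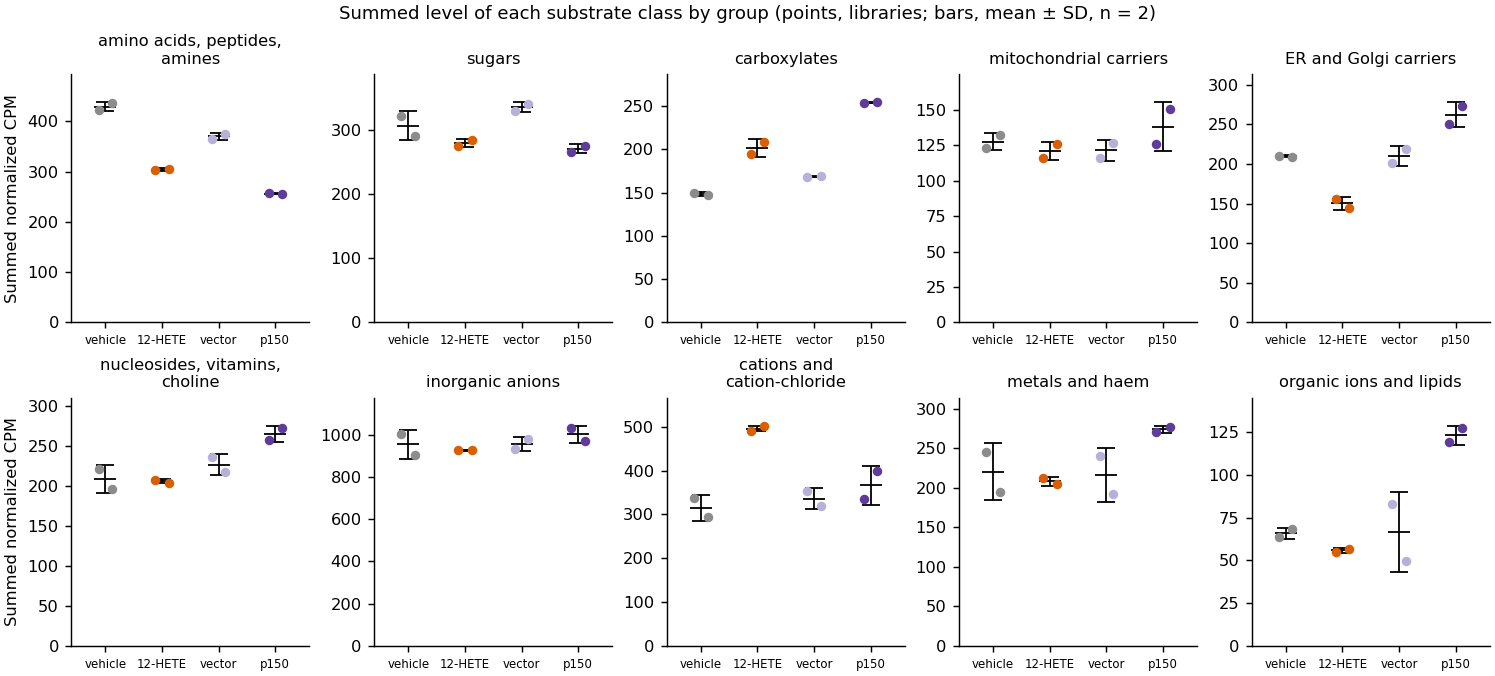
Summed normalized level in CPM of each substrate class, by group; points are libraries, bars the mean ± SD (n = 2) and p150 ADAR1 p150 overexpression. The amino acid class is lower in treated libraries of both experiments, at 302 to 306 and 255 to 257 CPM, and the carboxylate class is higher in both, at 195 to 209 and 254 to 255 CPM.

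The effects of both treatments were compared directly. The difference between the effects, with 12-HETE against vehicle minus ADAR1 p150 against vector, was called for 6 members (8.22%), against 8.33% of all genes, and all 6 had the lower value with 12-HETE. They were Slc10a1, Slc35a4, Slc23a1, Slc39a4, Slc35e2 and Slc22a5. Across the calls, 1 member was called higher in both experiments, 1 lower in both and 1 in opposite directions, so the shared members were 3 of the 7 called with 12-HETE and 3 of the 10 called with ADAR1 p150 (42.9% and 30%). Over all 6901 genes, 336 were called in both, which is 33.9% of those called with 12-HETE and 38% of those called with ADAR1 p150, so the members' shares lay on either side of the background with 3 members behind them. Slc39a10, higher in both, and Slc22a5, called in opposite directions, were tested because of the group where they were highest. In all, 17 calls were made on 14 members. Of the 17, 10 held with DESeq2 and 5 held under every alternative that gave a value: Slc38a2 in both experiments, Slc39a4 and Slc22a5 with 12-HETE, and Slc10a1 with ADAR1 p150.

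Members with and without an opposite-strand exon overlap were set side by side. With 12-HETE, 0 of the 21 members with an overlap were called higher and 2 lower, and 1 and 4 of the 52 without. With ADAR1 p150 the numbers were 1 and 1 of the 21 and 4 and 4 of the 52. Over all genes tested, 6.12% were called higher and 8.25% lower with 12-HETE, and 8.11% and 4.69% with ADAR1 p150. Shares for all genes with and without an overlap were not computed, so these counts are a description. Medians of the log2 fold change were -0.14 and -0.05 with 12-HETE and 0.19 and 0.16 with ADAR1 p150.

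Genes that work beside the solute carriers were read from lists chosen with these data already described. Of 18 accessory chains, chaperones and ion pumps, 8 reached the minimum. Tfrc, the transferrin receptor through which cells take up iron, had 5 and 3 counts with vehicle against 37 and 27 with 12-HETE, and 2 and 1 with vector against 12 and 6 with ADAR1 p150. Outside the 12-HETE libraries its mean count was 4.83, so it was tested because of the group where it was highest, and its values are a description. The log2 fold change was 2.77 ± 0.47 (adjusted p 1.53e-05) and 2.21 ± 0.74 (adjusted p 0.0258). The first call held without each library in turn. The second was lost without vector replicate 1 (2.77), without vector replicate 2 (1.79) and without ADAR1 p150 replicate 1 (1.69). It was also lost with no minimum count (adjusted p 0.0769) and in a fit of the 4 libraries of that experiment (0.0674), and DESeq2 gave no adjusted p. Bsg, the chaperone that brings lactate transporters to the membrane, had 18 and 24 counts with vector against 77 and 49 with ADAR1 p150 and rose by 1.28 ± 0.29 (adjusted p 0.000809), and it differed by -0.40 ± 0.28 with 12-HETE (adjusted p 0.297). Without ADAR1 p150 replicate 1 its rise was 0.98, just under the 2-fold change. Under the 2-fold change, the sodium pump chain Atp1b1 rose by 0.80 with 12-HETE (adjusted p 0.00996) and the calcium pump Atp2a2 fell by 0.60 with ADAR1 p150 (adjusted p 0.00553), both chosen after seeing their values. The former did not pass without vehicle replicate 5 (0.52, adjusted p 0.218) or 12-HETE replicate 4 (adjusted p 0.0509), and the latter without vector replicate 2 (-0.51, adjusted p 0.0696) or ADAR1 p150 replicate 2 (-0.37, adjusted p 0.142). Of 30 solute carriers with other symbols, 7 reached the minimum. Sfxn3, a mitochondrial serine carrier, was called lower with 12-HETE, with 25 and 29 counts under vehicle and 14 and 7 under 12-HETE (-1.54 ± 0.37, adjusted p 0.00168), and 0 were called with ADAR1 p150.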

How the data were processed

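The authors deposited raw counts per gene for 8 RNA-seq libraries, without normalization. According to the study's methods, STAR aligned reads to GRCm38 and featureCounts assigned fragments to genes. The sample labels name other extraction and library kits. The methods describe removal of duplicate reads with prinseq for the RNA editing data, and whether it preceded the deposited counts is not stated. If it did, the counts are smaller than the numbers of reads, and a library with more duplicates lost more.

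Genes averaging 10 or more counts were kept, TMM factors were computed, and all 8 libraries were fitted in edgeR 4.0.16 (limma 3.58.1, R 4.3.3) with a coefficient per group. Quasi-likelihood p-values received Benjamini-Hochberg adjustment over 6901 genes, and the standard error was taken as the log2 fold change divided by the square root of F. CPM are counts divided by the TMM-scaled library total. Total counts per library were between 1101767 and 1537037, so members with few counts were measured with wide errors (median standard error 0.36 and 0.35 on the log2 scale). Replicates differed by more than sampling noise (mean chi-square per gene between 1.63 and 2.77). Alternatives were DESeq2 1.42.0, RLE factors, leaving out AY036118, other minimum counts, a fit of 4 libraries, a replicate block, adjusted p alone and leaving out each library in turn.

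Members, substrate classes and lists were chosen with earlier results of these data known. The text names every called member, the 2 most abundant members of each class, members of a list of 23 well known transporters and called genes of the related lists; others are marked, and 1 member that the rule selects is not reported here. Gene positions and strands are from GENCODE M21 (GRCm38) and promoters from RefSeq. RNA editing and protein levels were not analysed here.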

Additional observations from a re-analysis of the deposited data

Results flagged for a closer look

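For 6 members the effect of 12-HETE and that of ADAR1 p150 differed when edgeR tested the difference itself, and each had a value below 0 with 12-HETE and above 0 with ADAR1 p150. The difference on the log2 scale was -2.35 ± 0.47 (SE) for the bile salt importer Slc10a1 (adjusted p 0.000479) and -2.44 ± 0.45 for the zinc importer Slc39a4 (adjusted p 0.000218). It was -1.85 ± 0.39 for Slc35e2 (adjusted p 0.000745) and -1.05 ± 0.32 for Slc35a4 (adjusted p 0.0193), both of the nucleotide sugar transporter family. For Slc23a1, the vitamin C importer, it was -1.04 ± 0.27 (adjusted p 0.00691). The fitted difference for Slc22a5, the carnitine importer, was -6.13 ± 0.93 (adjusted p 1.15e-05), and it rests on 1 count in the 12-HETE libraries. Slc22a5 was tested because of its ADAR1 p150 libraries, so its difference is a description. Of the 6 members, Slc39a4, Slc35e2 and Slc35a4 passed with 12-HETE alone, Slc10a1 and Slc23a1 with ADAR1 p150 alone, and Slc22a5 with both. DESeq2 called 3 differences among the members, against 6 by edgeR. In the test of vector against vehicle, 0 of the 6 passed by adjusted p.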

How the results depend on the processing

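Among the 12-HETE calls, 7 became 16 by adjusted p alone and 4 with at least 10 counts in every library, a filter that leaves 51 members. The 10 calls with ADAR1 p150 became 18, 3 under that filter and 4 with DESeq2, and the 6 called differences became 3 with DESeq2. Leaving out each library in turn gave from 6 to 9 calls with 12-HETE, from 5 to 10 with ADAR1 p150 and from 5 to 7 differences. Beside these, RLE factors, leaving out AY036118, no minimum and a fit of 4 libraries kept each count within 1.5 times. The last gives no value for the difference. The members behind a count still changed. With no minimum, ADAR1 p150 calls were lost for Slc7a5 (adjusted p 0.0563), Slc3a1 (0.0812), Slc39a10 (0.0664) and Slc22a5 (0.136). The members' median lay between -0.16 and 0.00 with 12-HETE and between 0.11 and 0.26 with ADAR1 p150 when libraries were left out.

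The replicate numbers were not shown to pair the libraries (correlation of same-numbered deviations -0.08 and -0.11). A replicate block gave 8, 7, 6 and 0 calls with 12-HETE, with ADAR1 p150, for the difference and between controls. With that block the ADAR1 p150 calls of Slc7a5 (adjusted p 0.0592), Slc39a10 (0.0566) and Slc22a5 (0.0672) were lost. The crossed pairing, chosen after seeing the data, gave 8, 10, 6 and 0.

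No value that passed changed direction. Slc26a10, at 0.02 with 12-HETE, was -0.0027 with DESeq2, -0.0028 with RLE factors, -0.052 without AY036118, -0.030 with no minimum and -0.0075 in the fit of 4 libraries, and with no minimum the ADAR1 p150 values were -0.0059 for Slc26a10, -0.0068 for Slc24a5 and -0.0031 for Slc39a1. Leaving out libraries changed the direction of 12-HETE values of Slc26a10 (-0.12 to 0.10), Slc5a2 (-0.47 to 0.0031), Slc5a6 (-0.32 to 0.075), Slc25a18 (-0.19 to 0.10), Slc39a5 (-0.35 to 0.21), Slc25a3 (-0.30 to 0.60), Slc1a5 (-0.19 to 0.50) and Slc39a1 (-0.92 to 0.65), and of ADAR1 p150 values of Slc24a5 (-0.12 to 0.29), Slc5a6 (-0.15 to 0.021), Slc35a4 (-0.0040 to 0.35), Slc25a3 (-0.82 to 0.18) and Slc39a1 (-0.24 to 0.48). The cause was not tested.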
